A study of Mus musculus with 12 samples.

Results

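The mitochondrial genome of the mouse carries 37 genes, and all 37 were among the 47517 gene symbols of the count table. The rule that picks them is every symbol that starts with mt-, and it uses no measured value. They comprise 13 mRNA genes, 2 rRNA genes (mt-Rnr1 and mt-Rnr2) and 22 tRNA genes. The RNA came from mouse embryonic fibroblasts of the C57BL/6 strain, taken at embryonic day 13.5 and immortalised with the SV40 large T antigen, brought in with pMSCV vectors. The study asked which transcripts change when Ssb1 and Ssb2 are lost. Both alleles of Ssb1 (gene symbol Nabp2) and of Ssb2 (Nabp1), which encode related single-stranded DNA-binding proteins, are floxed in every group, the controls included. The Cre-positive cells carry RosaCreERT2, a Cre recombinase expressed from the Rosa26 locus that enters the nucleus when 4-hydroxytamoxifen (4-OHT) binds it, and the Cre-negative cells lack it. Each genotype was left untreated or cultured for 5 days with ethanol, the vehicle, or with 4-OHT, which gives 6 groups of 2 libraries. Whether the 2 libraries of a group are separate cultures is not in the labels. The p-values therefore weigh differences only against the scatter between these libraries, and that scatter may be technical. Libraries are named by the numbers in their titles. Libraries 1 and 2 are Cre-negative untreated, 9 and 10 Cre-negative ethanol, and 5 and 6 Cre-negative 4-OHT. Libraries 7 and 8 are Cre-positive untreated, 3 and 4 Cre-positive ethanol, and 11 and 12 Cre-positive 4-OHT.

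Mitochondrial DNA is a small circle, present in many copies per cell, that is transcribed from both strands into long precursors. The tRNAs lie between the other genes, and cutting them out frees the rRNAs and mRNAs. The rRNAs form the core of the mitochondrial ribosome, the tRNAs serve it, and it translates the mRNAs into core subunits of respiratory complexes I, III and IV and of ATP synthase (complex V). All other subunits, and all proteins that transcribe, process and degrade these RNAs, are encoded in the nucleus. Because the RNAs of a strand start as shared precursors, differences in level between them are usually ascribed to processing and decay after transcription.

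Libraries held 20201855 to 36367012 counts in total. Levels are CPM (counts scaled to the same library total), on totals scaled by the trimmed mean of M values, and tests are edgeR quasi-likelihood tests with Benjamini-Hochberg adjustment over 17609 genes and a threshold of 0.05. In the labelled order of libraries 1 to 12, Nabp1 stood at 27.5, 25.2, 14.5, 15.9, 26.3, 25.7, 16.1, 15.2, 26.5, 24.5, 3.40 and 3.96 CPM, and Nabp2 at 27.1, 27.0, 19.8, 22.6, 31.2, 28.2, 22.5, 20.7, 26.2, 26.4, 4.84 and 5.09 CPM. Both were lowest in the 2 Cre-positive 4-OHT libraries. In the untreated and ethanol Cre-positive libraries both were also below every Cre-negative library. There Nabp1 stood at 14.5 to 16.1 CPM against 24.5 to 27.5, and Nabp2 at 19.8 to 22.6 against 26.2 to 31.2. Summed fibroblast markers ranged from 5052 to 6977 CPM (8 genes, with Thy1 under 1 CPM in every group) and were higher in all Cre-positive than in all Cre-negative libraries. Summed epithelial markers (4 genes) reached 2.91 CPM and endothelial markers (3 genes) 0.896 CPM. Of the non-fibroblast markers, Epcam, Krt18, Pecam1, Cdh5, Kdr, Ptprc, Csf1r, Myod1, Myog and Sox10 stayed under 1 CPM. Krt8 reached 1 CPM in the Cre-negative 4-OHT group and Cdh1 in the Cre-positive 4-OHT group. Des reached it in all groups but Cre-positive ethanol, and Cd68, Sox2 and Map2 in every group. Summed haematopoietic, skeletal muscle and neural markers (3 genes each) ranged from 2.80 to 4.58, from 0.826 to 1.95 and from 58.8 to 89.9 CPM. In bulk samples, fewer cells with an RNA and less of it per cell cannot be told apart.

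The 3 classes were measured to very different depths. Of the 37 genes, 16 passed the filter on low counts: 11 mRNA genes, both rRNA genes and 3 of the 22 tRNA genes. The largest summed counts over the 12 libraries belonged to mt-Rnr2, the large ribosomal RNA, with 2611023, and to mt-Co1, the catalytic subunit of complex IV, with 2016396. The other mRNA and rRNA genes spanned several orders of magnitude: mt-Cytb had 12797 to 22503 counts per library, mt-Nd6 803 to 1532, mt-Co2 84 to 184 and mt-Atp6 28 to 56. Of the 2 mRNA genes that did not pass the filter, mt-Atp8 (a subunit of complex V) had 1 to 7 counts per library and mt-Nd4l (a subunit of complex I) 0 to 3.

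**Figure D1:**
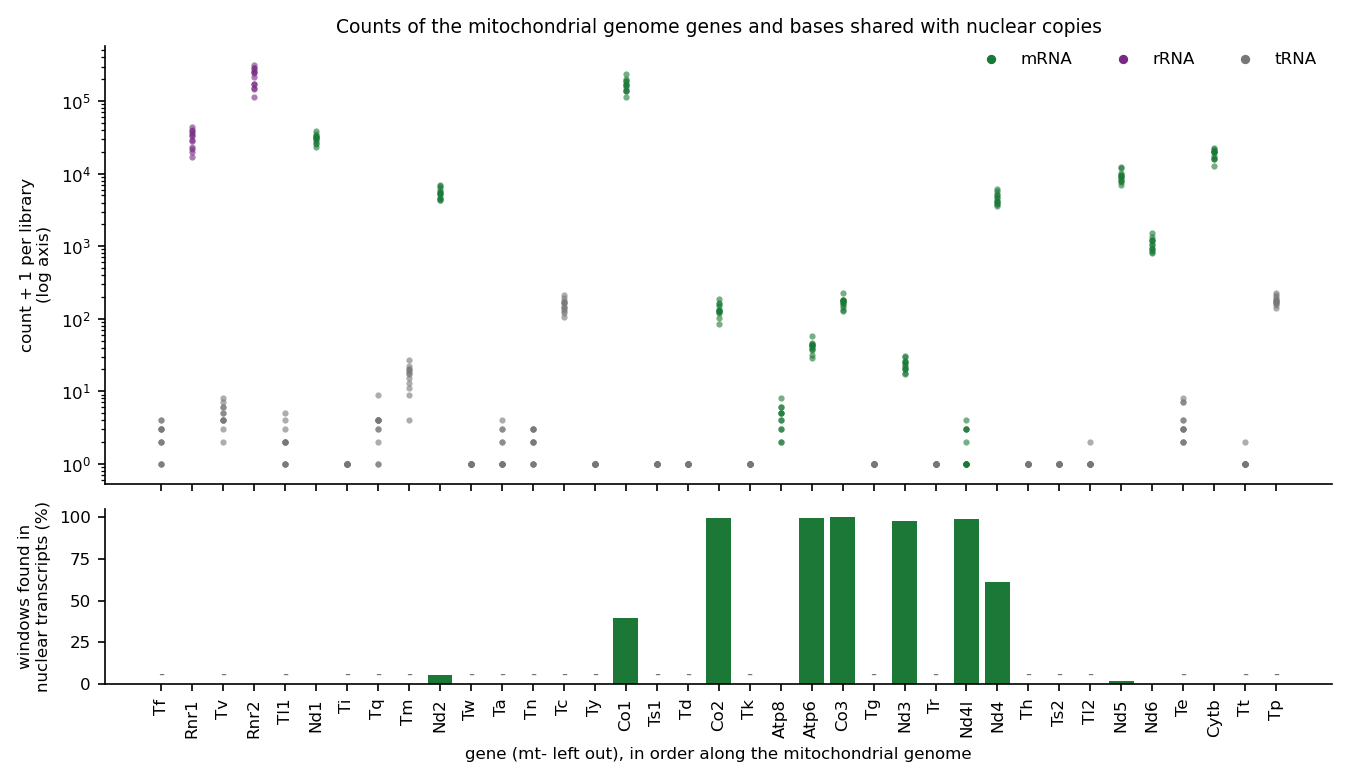
Counts of the 37 genes in order along the mitochondrial genome. Upper panel: count plus 1 in each of the 12 libraries (points, log axis), coloured by class. Lower panel: percent of each gene's 75-base windows that also occur in annotated nuclear transcripts. A dash marks every tRNA gene, of which all but mt-Tl1 are too short to hold a window. The genes with nearly all windows shared, from mt-Co2 to mt-Nd4l, lie at 0 to 225 counts, and most tRNA genes lie at or near 0.

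The tRNAs were almost unmeasured. In every library 10 of the 22 tRNA genes had 0 counts, and 9 more had at most 8 counts in any library. A count of 0 allows up to 3 counts, or 0.0825 to 0.149 CPM depending on the library. Only mt-Tc (tRNA for cysteine), mt-Tp (proline) and mt-Tm (methionine) passed the filter. The tRNA genes are 59 to 75 bases long, no longer than the 75 bases of a read. The RNA was extracted on RNeasy Plus Mini columns, and the loss of RNA this short in extraction and library preparation was not tested. Counts on tRNA genes do not tell mature tRNAs from precursors, so here and below they are no measure of tRNA levels. Of 4334 tRNA counts in all libraries, 91.9% fell on mt-Tc and mt-Tp. The 8 tRNA genes of the minus strand held 4072 counts and the 14 of the plus strand 262. The sequences of the 3 tRNAs that passed and of 2 with 0 counts in all libraries (mt-Tk for lysine and mt-Tw for tryptophan) show how short these genes are. They are given 5′ to 3′ on the gene's own strand, with the anticodon in capitals. It was located as the only triplet near the middle of the gene that pairs with a codon of that amino acid and stands between a pyrimidine and a purine. On GRCm38 they lie at chrM:5192-5257 (minus strand, mt-Tc), chrM:15356-15422 (minus, mt-Tp), chrM:3845-3913 (plus, mt-Tm), chrM:7700-7764 (plus, mt-Tk) and chrM:4950-5016 (plus, mt-Tw).
mt-Tc: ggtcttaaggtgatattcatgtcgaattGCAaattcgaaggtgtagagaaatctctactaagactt
mt-Tp: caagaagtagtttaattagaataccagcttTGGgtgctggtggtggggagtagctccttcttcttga
mt-Tm: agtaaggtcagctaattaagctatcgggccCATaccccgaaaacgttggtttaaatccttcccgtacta
mt-Tk: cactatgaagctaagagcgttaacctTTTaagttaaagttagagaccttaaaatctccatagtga
mt-Tw: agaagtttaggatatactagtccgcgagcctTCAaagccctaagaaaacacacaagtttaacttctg
The library kit keeps the strand of the RNA, but no source used here gives the strand setting of the counting. RNA read from the opposite strand of mt-Tc, mt-Tp or mt-Nd6, the only mRNA gene of the minus strand, can therefore not be told apart from RNA of these genes.

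Low counts among the mRNA genes went together with nuclear copies. Pieces of mitochondrial DNA inserted in the nuclear genome are called NUMTs, and a read inside an exact copy matches both places. Of the 15 annotated copies in the count table, 7 lie in a row on the minus strand of chromosome 1 (GRCm38), in the same order as their mitochondrial originals from mt-Co1 to mt-Nd4. The 75-base windows of mt-Co3 were found in nuclear transcripts for 99.9%, of mt-Co2 and mt-Atp6 for 99.5%, of mt-Nd4l for 98.7% and of mt-Nd3 for 97.8%. The share was 61.5% for mt-Nd4, 39.8% for mt-Co1, 5.7% for mt-Nd2 and 1.7% for mt-Nd5, and 0% for the 4 other mRNA genes and for both rRNA genes. The 5 mRNA genes with at least 97% shared windows had 0 to 225 counts per library. Apart from mt-Atp8, the other 7 had 803 to 234229. The first 60 bases of 3 matching stretches show how close the copies are. Capitals mark the single base that differs in the mt-Co1 and mt-Nd3 pairs (the copies aligned over 483 and 345 bases with 1 mismatch each), and the start codon in the mt-Atp6 pair, which had no mismatch in 678 bases.
mt-Co1, chrM:6390-6449: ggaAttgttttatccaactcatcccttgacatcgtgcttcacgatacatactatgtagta
Gm29216, chr1:24616129-24616188: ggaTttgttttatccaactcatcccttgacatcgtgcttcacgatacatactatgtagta
mt-Nd3, chrM:9459-9518: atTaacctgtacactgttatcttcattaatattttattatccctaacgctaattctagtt
Gm28438, chr1:24613060-24613119: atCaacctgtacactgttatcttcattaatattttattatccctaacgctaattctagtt
mt-Atp6, chrM:7927-7986: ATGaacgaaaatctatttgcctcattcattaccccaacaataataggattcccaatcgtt
Gm10925, chr1:24614592-24614651: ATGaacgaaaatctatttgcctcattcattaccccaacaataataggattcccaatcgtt

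For 4 genes the copy carried more counts than the original in every library. Gm28661 exceeded mt-Co2, Gm28437 exceeded mt-Co3, Gm10925 exceeded mt-Atp6 and Gm28438 exceeded mt-Nd3 in 12 of 12 libraries. Gm28437, the copy of the complex IV subunit mt-Co3, had 860 to 1356 counts per library against 127 to 225 for mt-Co3 itself. Gm10222 exceeded mt-Nd4l in 11 libraries, at 1 to 5 counts. The genes with less shared sequence went the other way: Gm28439 had 18 to 52 counts against 3595 to 6094 for mt-Nd4, and the copies Gm29216 and Gm13340 had 541 to 976 and 288 to 483 against 115062 to 234229 for mt-Co1. Adding copy and original did not bring these genes to the level of mt-Co1. The sums were 988 to 1581 counts for mt-Co3, 447 to 876 for mt-Co2, 242 to 370 for mt-Atp6 and 109 to 195 for mt-Nd3. The first 43 bases of mt-Atp6 are also the last 43 of mt-Atp8, and the same interval of 233 bases separates Gm28661 from Gm10925 on chromosome 1 as separates the matching parts of mt-Co2 and mt-Atp6, with no copy of mt-Atp8 annotated in it. No source used here gives the treatment of reads that match several places, and the part of shared sequence in the low counts was not tested. Levels of mt-Co2, mt-Co3, mt-Atp6, mt-Atp8, mt-Nd3 and mt-Nd4l are therefore counts as listed, and those of mt-Nd4 and mt-Co1 cover a gene of which a part is shared. Copies that no annotated transcript covers were not examined.

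Per kilobase of gene, mt-Rnr2 had the highest median level over the 12 libraries, 5320 CPM per kb, followed by mt-Co1 at 4028. Their ranges overlapped (3512 to 7198 and 3564 to 4384 CPM per kb). mt-Nd1, a membrane subunit of complex I, and mt-Rnr1, the small ribosomal RNA, were next, with overlapping ranges and medians of 1191 and 1148. mt-Cytb, the only mitochondrially encoded subunit of complex III, followed at 590, apart from its neighbours on either side. mt-Nd2 and mt-Nd5 (198 and 184) overlapped, as did mt-Nd5 and mt-Nd4 (124). Dividing all counts of a gene by its unshared windows only, per 1000 windows, turned the order of the medians. mt-Co1 then stood at 7033 CPM above mt-Rnr2 at 5582, and mt-Nd4 at 339 above mt-Nd2 at 226 and mt-Nd5 at 195. Reads were not counted by window, so these values are too high where counts came from shared windows. mt-Nd6, the complex I subunit of the minus strand, had a median of 76.6 CPM per kb. mt-Co3, mt-Co2, mt-Nd3, mt-Atp6 and mt-Atp8 stood between 7.76 and 0.580. mt-Co1 took 68.0% to 73.9% of all mitochondrial mRNA counts, depending on the library. That total takes the genes with shared sequence at their counts as listed, so the share also depends on how shared reads were counted.

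Mitochondrial RNA made up 1.47% (95% exact binomial interval 1.467% to 1.477%, library 7) to 2.22% (2.217% to 2.229%, library 5) of the counts of a library. These intervals cover counting error only, and so does the limit given for a count of 0. Counts on the nuclear copies, 0.00984% to 0.0146% of a library, are not included in these shares. The mRNA share was 0.908% ± 0.0261 (SD, n = 2) in Cre-negative untreated cells, 0.949% ± 0.0465 with ethanol and 0.902% ± 0.0116 with 4-OHT. The group means of Cre-positive cells were 0.818% ± 0.0157 untreated, 0.784% ± 0.0117 with ethanol and 0.881% ± 0.0138 with 4-OHT. On these totals each was below that of the Cre-negative group with the same treatment, and all Cre-positive libraries except library 12 lay below all Cre-negative libraries. On the TMM-scaled totals behind the CPM the order turned for 4-OHT, with 0.904% ± 0.0101 for the Cre-positive group against 0.894% ± 0.0131 for the Cre-negative group, and libraries 11 and 12 both lay among the Cre-negative libraries. The rRNA share varied more: 0.746% ± 0.0282, 0.977% ± 0.00935 and 1.21% ± 0.171 in untreated, ethanol and 4-OHT Cre-negative cells, and 0.654% ± 0.0140, 0.835% ± 0.165 and 0.994% ± 0.0479 in the same order in Cre-positive cells. The 2 Cre-positive ethanol libraries were far apart, with 198076 rRNA counts (0.718%) in library 3 and 288084 (0.951%) in library 4, and so were the 2 Cre-negative 4-OHT libraries (1.33% in library 5, 1.09% in library 6). The tRNA share was lowest in the 2 Cre-positive 4-OHT libraries, at 0.00102% ± 0.0000669.

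**Figure D2:**
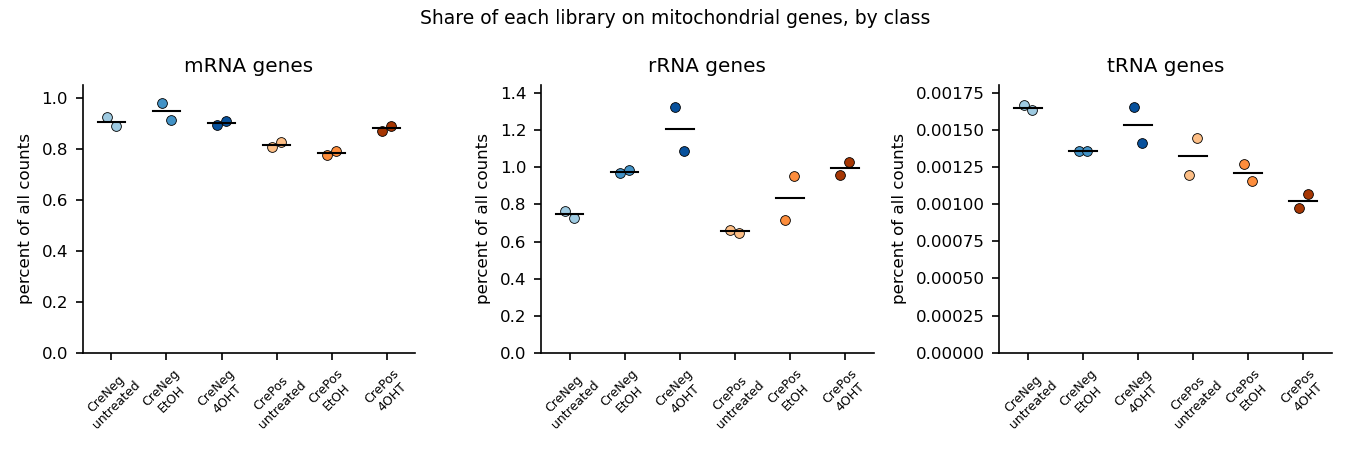
Share of each library's counts (percent) on mitochondrial mRNA, rRNA and tRNA genes. Points are libraries, 2 per group, and lines are group means; the vertical scale differs between panels. Within each genotype the mean rRNA share is lowest in the untreated group (untreated libraries 0.645% to 0.766%, with library 3 of the Cre-positive ethanol group inside that range at 0.718%), and the 2 libraries lie apart in the Cre-positive ethanol and Cre-negative 4-OHT groups.

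The libraries had been depleted of ribosomal RNA with Ribo-Zero Gold, which is designed to remove cytoplasmic and mitochondrial rRNA. The mt-Rnr1 and mt-Rnr2 values are thus what was left after depletion. Gm26917, the only tested gene of a list of 6 chosen to follow the rRNA that remains, ranged from 12341 to 18772 CPM. In the comparisons below it did not pass the test for 4-OHT against ethanol in Cre-positive cells (log2 difference −0.10, edgeR adjusted p = 0.287) or in Cre-negative cells (0.09, adjusted p = 0.505), but it passed as lower in the former without the filter on low counts and with the compared libraries alone. It fell in 2 comparisons in which mt-Rnr2 rose, by 0.30 on the log2 scale in Cre-positive 4-OHT against untreated cells (adjusted p = 0.00161) and by 0.26 in Cre-negative ethanol against untreated cells (adjusted p = 0.00743). The part of uneven depletion in the mt-Rnr1 and mt-Rnr2 values was not tested.

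The central comparison sets Cre-positive cells given 4-OHT against Cre-positive cells given ethanol. mt-Co1 and mt-Rnr2 rose, mt-Nd4 fell, and the other 13 of the 16 tested genes did not pass the test. The 3 called genes of 16 stand against 38.3% of all tested genes called in this comparison (21.1% higher and 17.2% lower). The CPM of the 2 groups did not overlap for 67.4% of all tested genes. The median log2 difference was −0.00 over the 16 genes, 0.01 over the 11 mRNA genes, 0.19 over the 2 rRNA genes and −0.29 over the 3 tRNA genes, against 0.03 over all tested genes. None of the 3 tRNA genes was called by edgeR, none had an unadjusted p under 0.05, and DESeq2 called mt-Co1 alone.

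mt-Co1 stood at 5691 and 5561 CPM in the ethanol libraries 3 and 4 and at 6630 and 6674 CPM in the 4-OHT libraries 11 and 12. Both 4-OHT libraries lay above both ethanol libraries, and the groups did not overlap. The log2 difference was 0.24 (SE 0.0356, adjusted p = 1.67e-05), which is 118% of the ethanol level, and it passed in all 12 alternative fits. mt-Rnr2 stood at 6444 and 8448 CPM with ethanol and at 8803 and 9406 CPM with 4-OHT. The groups did not overlap, but library 4 lay close to library 11. The log2 difference was 0.29 (SE 0.0844, adjusted p = 0.00969), and it did not pass without library 3 (0.08, adjusted p = 0.396) or library 12 (0.24, adjusted p = 0.0776). Over its 12 alternatives the adjusted p ran from 1.81e-18 to 0.396. The small rRNA gene mt-Rnr1 had 853 and 1209 CPM with ethanol and 1082 and 1111 with 4-OHT, so its 4-OHT libraries lay between the ethanol libraries. Its log2 difference was 0.09 (SE 0.0986, adjusted p = 0.516), and without library 4 it was 0.36 (adjusted p = 8.23e-04, with a range of 8.23e-04 to 0.799 over 12 alternatives).

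The mRNA genes of complex I went different ways. mt-Nd4 stood at 155 and 172 CPM with ethanol and at 133 and 128 with 4-OHT. The groups did not overlap, and the 4-OHT libraries were the lowest of all 12. Its log2 difference was −0.32 (SE 0.0869, adjusted p = 0.00571), and without library 4 it was −0.24 (adjusted p = 0.0812, with a range of 1.03e-10 to 0.0812 over 12 alternatives). mt-Nd2 (161 and 175 CPM with ethanol, 153 and 152 with 4-OHT) and mt-Nd5 (282 and 313, then 270 and 271) also had both 4-OHT libraries below both ethanol libraries. Neither passed the test: the log2 differences were −0.14 (SE 0.0682, adjusted p = 0.119) for mt-Nd2 and −0.14 (SE 0.0622, adjusted p = 0.0887) for mt-Nd5. mt-Nd1 had 970 and 1115 CPM with ethanol and 1112 and 1187 with 4-OHT, overlapping, with a log2 difference of 0.14 (adjusted p = 0.0557). mt-Nd6, on the other strand, had 30.8 and 30.04 CPM with ethanol and 30.8 and 30.3 with 4-OHT, with a log2 difference of 0.01 (adjusted p = 0.954). mt-Cytb of complex III overlapped between the groups (581 and 659, then 628 and 658 CPM), with a log2 difference of 0.05 (adjusted p = 0.512). The 4 tested genes whose sequence is almost wholly shared with nuclear copies did not pass either. mt-Co2 had 4.46 and 4.29 CPM with ethanol and 5.21 and 5.26 with 4-OHT, and mt-Co3 6.56 and 5.87 and then 6.37 and 5.86. mt-Atp6 had 1.36 and 1.47 and then 1.59 and 1.43, and mt-Nd3 0.884 and 1.01 and then 0.821 and 0.766. Their log2 differences ran from −0.25 for mt-Nd3 to 0.26 for mt-Co2, with adjusted p from 0.247 to 0.927.

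**Figure D3:**
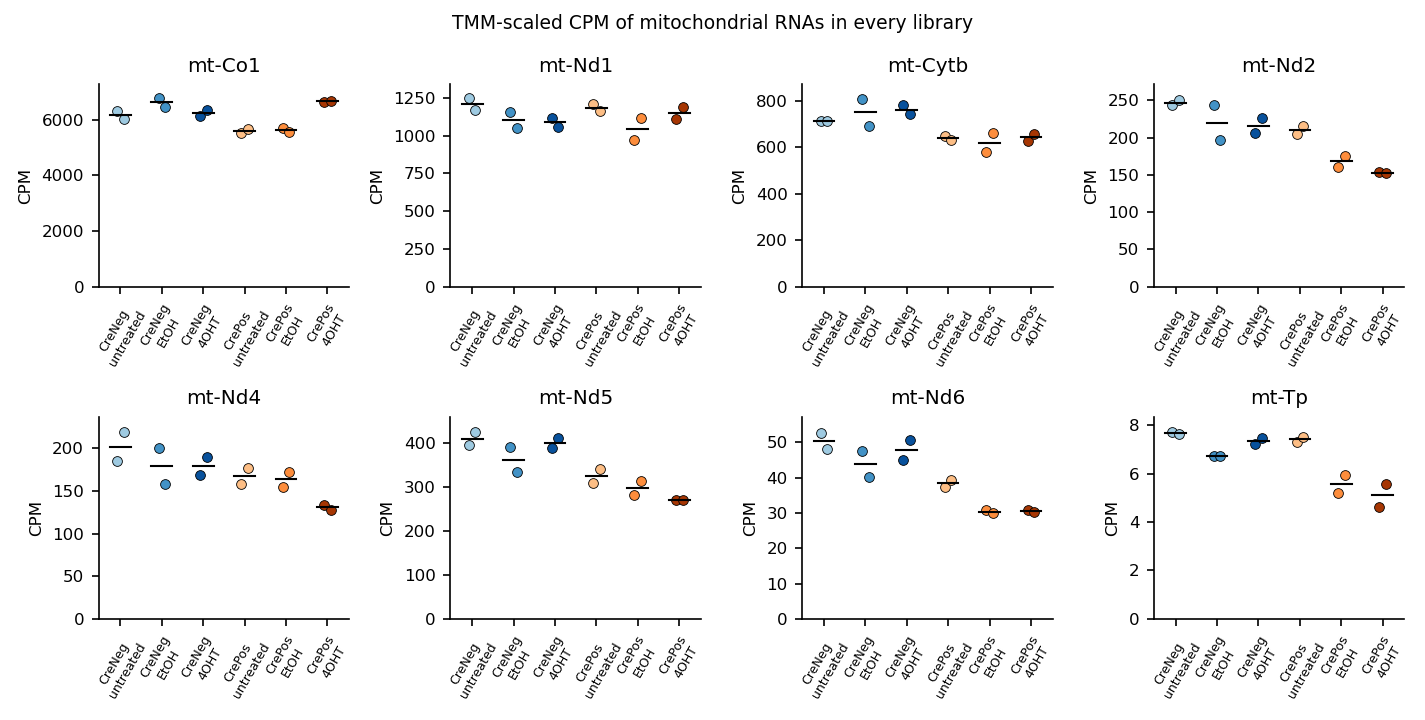
TMM-scaled CPM of 7 mRNA genes and mt-Tp in every library. Points are libraries, 2 per group, and lines are group means; the vertical axes start at 0 and differ between genes. mt-Co1 is higher in the Cre-positive 4-OHT libraries (6630 and 6674 CPM) than in the other Cre-positive libraries, while mt-Nd2, mt-Nd4 and mt-Nd5 are lowest there.

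The tRNA genes carried few counts. mt-Tc had 6.30 and 4.59 CPM with ethanol and 4.59 and 4.26 with 4-OHT, mt-Tp 5.19 and 5.97 and then 4.64 and 5.56, and mt-Tm 0.589 and 0.704 and then 0.396 and 0.566. The log2 differences were −0.29 (SE 0.184), −0.14 (SE 0.119) and −0.45 (SE 0.407), with adjusted p from 0.230 to 0.416. Among the nuclear copies, 1 of 8 tested was called: Gm28438, the copy of mt-Nd3, fell by 0.36 on the log2 scale (SE 0.130, adjusted p = 0.0315). mt-Nd3 itself had a log2 difference of −0.25 (adjusted p = 0.502), and the sum of both one of −0.37 (adjusted p = 0.0219).

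Ratios within a library do not depend on its total or on its scaling. The number of mt-Co1 counts per mt-Nd4 count was 36.8 and 32.3 in the Cre-positive ethanol libraries and 49.7 and 52.2 in the Cre-positive 4-OHT libraries. In the other 8 libraries it ranged from 27.6 (library 2) to 40.9 (library 10), so the Cre-positive 4-OHT libraries were the highest of 12. The same held for mt-Co1 per mt-Nd5, with 20.2 and 17.8 with ethanol, 24.5 and 24.6 with 4-OHT, and 14.2 to 19.4 in the other libraries. It also held for mt-Rnr2 per mt-Rnr1, with 7.55 and 6.99, then 8.13 and 8.47, and at most 7.46 elsewhere. These ratios show unequal change of the genes in them, not which of the pair moved. mt-Co1 and mt-Nd4 had been called in opposite directions in these same libraries. The ratios restate such differences and are no second test of them. The ratio of rRNA to mRNA counts did not separate these groups, with 0.926 and 1.201 with ethanol and 1.10 and 1.15 with 4-OHT.

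**Figure D4:**
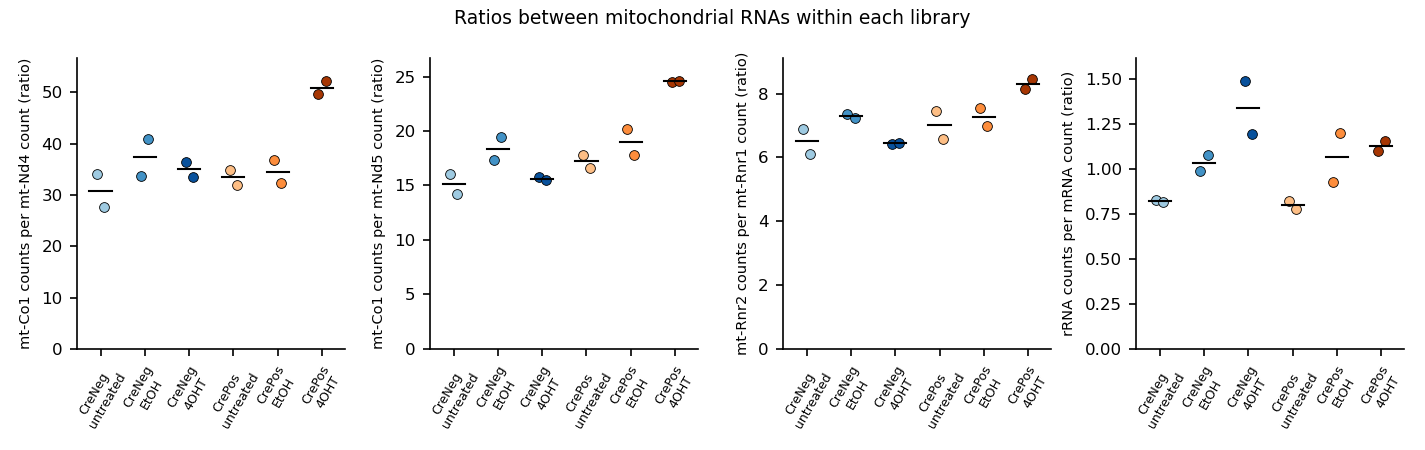
Ratios between mitochondrial RNAs within each library. Points are libraries, 2 per group, lines are group means, and every vertical axis starts at 0. The Cre-positive 4-OHT libraries have the highest mt-Co1 to mt-Nd4, mt-Co1 to mt-Nd5 and mt-Rnr2 to mt-Rnr1 ratios of the 12 libraries, and the highest ratio of rRNA to mRNA counts is 1.49, in a Cre-negative 4-OHT library.

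Cre-negative cells have no recombinase for 4-OHT to act on. In them 4-OHT against ethanol called both rRNA genes and none of the 11 mRNA or 3 tRNA genes. That is 2 of 16 against 5.99% of all tested genes (3.33% higher and 2.65% lower). Over all tested genes, the CPM of the 2 groups did not overlap for 51.0%. At an unadjusted p under 0.05, edgeR gave 4 mRNA genes and no tRNA gene, and DESeq2 called no mitochondrial gene. mt-Rnr1 stood at 1140 and 1167 CPM with ethanol and at 1771 and 1446 with 4-OHT. mt-Rnr2 stood at 8391 and 8443 and then at 11387 and 9350. Both 4-OHT libraries lay above both ethanol libraries for each gene, and library 5 was by far the highest. The log2 differences were 0.48 (SE 0.0986, adjusted p = 0.00515) for mt-Rnr1 and 0.30 (SE 0.0844, adjusted p = 0.0373) for mt-Rnr2. Without library 5 they were 0.32 (adjusted p = 0.170) and 0.14 (adjusted p = 0.524), and neither passed without library 9 or 10. Over 12 alternatives the adjusted p ran from 5.19e-31 to 0.170 for mt-Rnr1 and from 3.36e-18 to 0.524 for mt-Rnr2. mt-Co1 had 6773 and 6465 CPM with ethanol and 6129 and 6347 with 4-OHT, a log2 difference of −0.09 (adjusted p = 0.174).

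The difference between the 2 responses to 4-OHT, tested as an interaction, was called for 3 of the 16 genes, against 28.3% of all tested genes (14.5% higher and 13.8% lower). The effect on mt-Co1 was higher in Cre-positive cells by 0.33 on the log2 scale (SE 0.0503, adjusted p = 5.46e-05), and it passed in all 16 alternative fits. The effect on mt-Nd5 was lower, by a log2 difference of −0.28 (SE 0.0877, adjusted p = 0.0205). In Cre-negative cells mt-Nd5 had 391 and 333 CPM with ethanol and 388 and 410 with 4-OHT. The effect on mt-Rnr1 differed by −0.39 (SE 0.139, adjusted p = 0.0403), and without library 4 by −0.12 (adjusted p = 0.416, with a range of 6.60e-11 to 0.416 over 16 alternatives). It also did not pass without library 5, 9, 10, 11 or 12. mt-Nd4 had a difference of −0.32, as large as in Cre-positive cells alone, but did not pass (SE 0.122, adjusted p = 0.0547), and mt-Tc had −0.64 (SE 0.257, adjusted p = 0.0697). The mt-Nd5 difference did not pass without library 4, 6, 10 or 11, and over its 16 alternatives it ran from −0.41 to −0.18, with adjusted p from 1.34e-04 to 0.140.

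**Figure D5:**
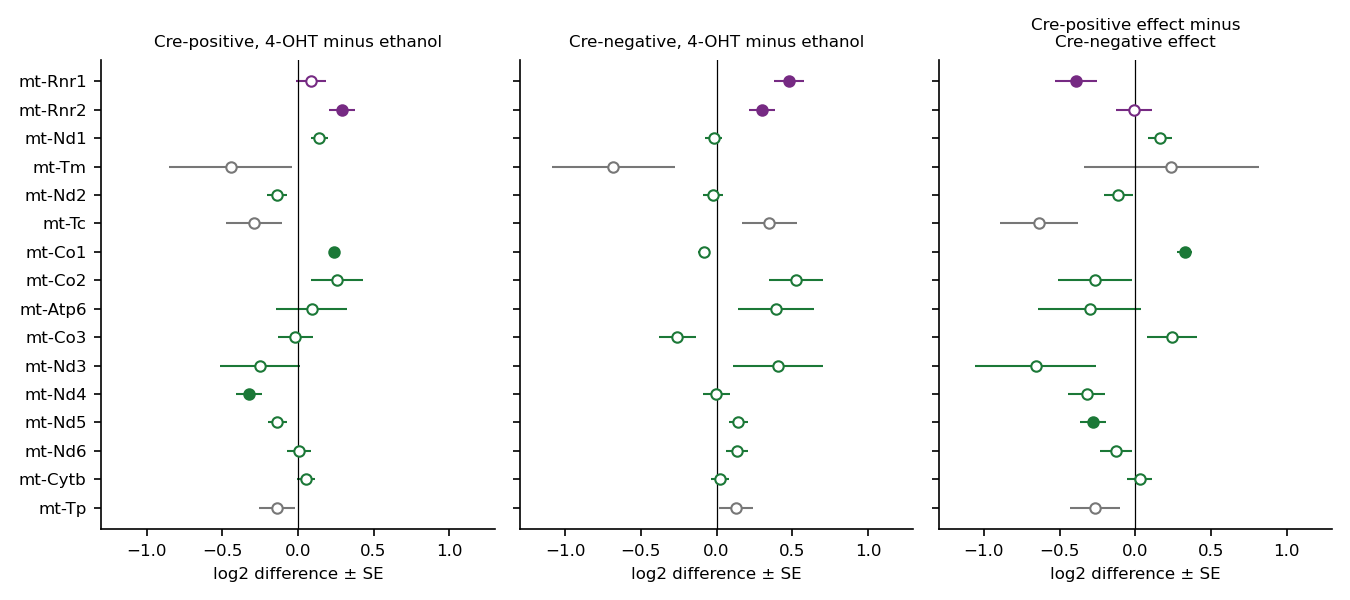
Log2 differences (points) with their SE (lines) for the 16 tested genes, in genome order: 4-OHT against ethanol in Cre-positive cells, in Cre-negative cells, and the difference between these effects. Filled points passed the test at an adjusted p of 0.05. mt-Co1 passed in the leftmost and rightmost panels (0.24 and 0.33), and mt-Rnr1 and mt-Rnr2 in the second (0.48 and 0.30).

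Cre-positive 4-OHT cells were also set against untreated Cre-positive cells. This comparison shares the 4-OHT libraries with the first, and its calls are no second test of them. The labels give no day for untreated cells. Here and in the comparisons of ethanol or 4-OHT with untreated cells below, treatment and time in culture cannot be told apart. Of the 16 genes 8 were called, against 39.2% of all tested genes (21.0% higher and 18.2% lower). Over all tested genes, the CPM of the 2 groups did not overlap for 69.1%. mt-Rnr2 rose by 0.67 on the log2 scale (SE 0.0848, adjusted p = 1.89e-06), mt-Rnr1 by 0.43 (SE 0.0991, adjusted p = 0.00161) and mt-Co1 by 0.25 (SE 0.0356, adjusted p = 7.59e-06). The complex I genes mt-Nd2, mt-Nd4, mt-Nd5 and mt-Nd6 fell, as did mt-Tp. mt-Nd2 stood at 205 and 215 CPM in the untreated libraries 7 and 8 and at 153 and 152 with 4-OHT, a log2 difference of −0.46 (SE 0.0683, adjusted p = 1.50e-05). mt-Nd4 (158 and 177 CPM untreated) had −0.35, mt-Nd5 (310 and 340 CPM untreated) −0.26, mt-Nd6 (37.4 and 39.5 CPM untreated) −0.33 and mt-Tp (7.32 and 7.52 CPM untreated) −0.55, each with groups that did not overlap. Each of these 8 genes passed in all 12 alternative fits.

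Ethanol against untreated in Cre-positive cells, which shares the untreated libraries with the comparison above, called 6 of 16 genes, against 14.9% of all tested genes (8.11% higher and 6.84% lower). Over all tested genes, the CPM of the 2 groups did not overlap for 53.0%. mt-Rnr2 went from 5873 and 5555 CPM untreated to 6444 and 8448 with ethanol, a log2 difference of 0.38 (SE 0.0845, adjusted p = 0.00380). mt-Rnr1 went from 787 and 845 to 853 and 1209, a difference of 0.34 (SE 0.0992, adjusted p = 0.0239). Without library 4 these were 0.17 (adjusted p = 0.139, with a range of 5.38e-35 to 0.139 over 12 alternatives) and 0.07 (adjusted p = 0.673, with a range of 2.48e-17 to 0.673). mt-Rnr1 also did not pass without library 7 or 8. mt-Nd6 fell by 0.34 (SE 0.0774, adjusted p = 0.00492), mt-Nd2 by 0.32 (SE 0.0684, adjusted p = 0.00267), mt-Tp by 0.41 (SE 0.119, adjusted p = 0.0241) and mt-Nd1 by 0.18 (SE 0.0569, adjusted p = 0.0323), all on the log2 scale. mt-Nd1 was at 1209 and 1160 CPM untreated and at 970 and 1115 with ethanol, and without library 3 its difference was −0.08 (adjusted p = 0.399). Neither mt-Nd1 nor mt-Tp passed without library 3, 7 or 8, and mt-Nd6 did not pass without library 8 (−0.30, adjusted p = 0.0589). mt-Nd4 and mt-Co1 did not pass, with −0.03 (adjusted p = 0.874) and 0.01 (adjusted p = 0.883).

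Ethanol against untreated in Cre-negative cells called 5 of 16 genes, against 24.5% of all tested genes (12.5% higher and 12.0% lower). Over all tested genes, the CPM of the 2 groups did not overlap for 60.6%. mt-Rnr2 went from 6627 and 6224 CPM to 8391 and 8443, a log2 difference of 0.39 (SE 0.0845, adjusted p = 0.00164), and it passed in all 12 alternative fits. mt-Co1 rose by 0.10 (SE 0.0356, adjusted p = 0.0440). mt-Nd5 fell by 0.18 (SE 0.0618, adjusted p = 0.0374), mt-Nd6 by 0.20 (SE 0.0716, adjusted p = 0.0415) and mt-Tc by 0.52 (SE 0.177, adjusted p = 0.0377). The mt-Nd5 and mt-Nd6 differences were −0.06 (adjusted p = 0.589) and −0.08 (adjusted p = 0.574) without library 10. mt-Nd5 also did not pass without library 2, mt-Nd6 without library 1, and mt-Tc without any of libraries 1, 2, 9 and 10. mt-Co1 was at 0.07 without library 2 (adjusted p = 0.253) and at 0.08 without library 9 (adjusted p = 0.228). 4-OHT against untreated in these cells called 2 of 16 genes, against 19.2% of all tested genes (10.1% higher and 9.14% lower). Over all tested genes, the CPM of the 2 groups did not overlap for 57.0%. Both were rRNA genes: mt-Rnr1 rose by 0.70 (SE 0.0990, adjusted p = 2.26e-05) and mt-Rnr2 by 0.69 (SE 0.0848, adjusted p = 3.51e-06), each in all 12 alternative fits. None of the 11 mRNA genes was called there by edgeR, and 2, mt-Nd1 and mt-Nd2, had an unadjusted p under 0.05. DESeq2 called the same number of 2 genes. The untreated libraries of both genotypes and library 3 held the 5 lowest mt-Rnr2 levels of the 12 libraries, from 5555 to 6627 CPM.

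The untreated Cre-positive and Cre-negative cells differed as well. Cre-positive cells were lower for 8 of 16 genes and higher for none, against 49.0% of all tested genes called in either direction (24.4% higher and 24.6% lower). Over all tested genes, the CPM of the 2 groups did not overlap for 72.7%. The called genes were mt-Co1, mt-Cytb, mt-Nd2, mt-Nd4, mt-Nd5, mt-Nd6, mt-Rnr1 and mt-Tc. No mitochondrial gene was higher at an unadjusted p under 0.05 in edgeR, and DESeq2 called none higher either. With the counts of its nuclear copy added, mt-Nd3 was called higher in Cre-positive cells (0.50, adjusted p = 0.00323). mt-Nd6 stood at 52.8 and 48.3 CPM in Cre-negative and at 37.4 and 39.5 in Cre-positive cells, a log2 difference of −0.39 (SE 0.0742, adjusted p = 1.35e-04). mt-Nd5 stood at 395 and 425 and then at 310 and 340, a difference of −0.34 (SE 0.0623, adjusted p = 1.07e-04). mt-Co1 stood at 6319 and 6029 and then at 5506 and 5655, a difference of −0.15 (SE 0.0356, adjusted p = 0.00169). The groups did not overlap for any of these 3 genes, and each passed in all 12 alternative fits. mt-Tc had −0.62 (SE 0.186, adjusted p = 0.00871) and mt-Nd2 −0.23 (SE 0.0676, adjusted p = 0.00692). mt-Nd2, mt-Nd4 and mt-Rnr1 did not pass without library 2 or 7, mt-Tc without library 7 (−0.38, adjusted p = 0.178), and mt-Cytb without any of libraries 1, 2, 7 and 8. The mt-Nd3 copy Gm28438 went the other way, with 4.27 and 3.76 CPM in Cre-negative and 5.78 and 5.75 in Cre-positive cells (0.53, SE 0.141, adjusted p = 0.00361). The labels do not say how many lines of each genotype were used, so the Cre allele and the line cannot be told apart.

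The nuclear genes that act on the mitochondrial genome were read from lists by role, for 4-OHT against ethanol in Cre-positive cells, where 21.1% of all tested genes rose and 17.2% fell. The 10 genes of mitochondrial transcription had a median log2 difference of 0.00. Of them 2 rose, Mterf4, a factor of mitochondrial ribosome assembly, by 0.39 (SE 0.0704, adjusted p = 1.50e-04) and Tfam, which packages mitochondrial DNA and starts its transcription, by 0.13 (adjusted p = 0.0397). Tfam did not pass without library 4 (0.05, adjusted p = 0.516), 11 or 12. With all libraries kept, Tfam also lost its edgeR call with other scaling factors (RLE or none), without the filter on low counts and with nuclear copies added. The same held with the compared libraries alone (adjusted p = 0.149), and DESeq2 did not call it (adjusted p = 0.159). Of 17 genes of RNA processing and stability 4 rose and 4 fell. Lrpprc, which binds and stabilises mitochondrial mRNAs, stood at 151 and 148 CPM with ethanol and at 92.5 and 87.2 with 4-OHT. The groups were well apart, and the log2 difference was −0.73 (SE 0.0406, adjusted p = 2.61e-11). Fastkd5, which acts in processing the precursors that lack a flanking tRNA, had −0.46 (adjusted p = 0.00340), and without library 12 it had −0.33 (adjusted p = 0.0642). Of 5 genes of RNA decay 3 fell and none rose. They were Supv3l1, the helicase of the mitochondrial degradosome, with −0.28 (adjusted p = 3.61e-04), Rexo2 with −0.15 and Pde12 with −0.13. Rexo2 did not pass without library 11, nor Pde12 without library 4, 11 or 12. With all libraries kept, Pde12 also did not pass in edgeR without the filter on low counts (adjusted p = 0.0600) or by DESeq2 (adjusted p = 0.0514).

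Among 14 genes of mitochondrial DNA replication and nucleotide supply 1 rose and 4 fell, among them Top1mt, the mitochondrial topoisomerase, with −0.34 (adjusted p = 0.00451, and 0.0721 without library 4). Of 22 mitochondrial aminoacyl-tRNA synthetases 4 rose and 7 fell. Vars2 and Tars2, for valine and threonine, had −0.57 (adjusted p = 3.28e-05) and −0.44 (adjusted p = 2.70e-07). Lars2, for leucine, had 2413 and 2136 CPM with ethanol and 4920 and 2651 with 4-OHT. Which part of the gene these counts came from was not examined. DESeq2 with all libraries kept did not call Lars2 (0.72, adjusted p = 0.111), and its edgeR call rested on single libraries. The log2 difference was 0.74 (adjusted p = 0.00525), without library 11 it was 0.22 (adjusted p = 0.360), and without library 4 it was 0.65 (adjusted p = 0.0513). Of 76 tested mitochondrial ribosomal proteins 40 rose and 5 fell, with a median log2 difference of 0.15. Mrps28 rose by 0.58 (SE 0.0705, adjusted p = 1.46e-06), Mrpl34 rose by 0.47 and Mrpl33 fell by 0.46. With 4-OHT against untreated Cre-positive cells, 20 of the 76 rose and 12 fell, with a median of 0.05. There 21.0% of all tested genes rose and 18.2% fell.

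Of 36 nuclear complex I subunits 18 rose and 3 fell, with a median log2 difference of 0.14, beside 1 of 6 tested mitochondrial complex I genes that fell. Of 9 nuclear complex III subunits 5 rose, Uqcrfs1, the Rieske protein, by 0.42 (adjusted p = 1.71e-07), and none fell. Of 11 nuclear complex IV subunits 9 rose and none fell, with a median of 0.21. Of the mitochondrial complex IV genes mt-Co1 rose, and mt-Co2 and mt-Co3 did not pass. Ndufa4 rose by 0.29. Of 16 nuclear complex V subunits 11 rose and none fell, and Usmg5 rose by 0.40. The mitochondrial mt-Cytb of complex III and mt-Atp6 of complex V did not pass, and mt-Atp8 was not tested. Of the 4 subunits of complex II, the only complex with no mitochondrial gene, 2 rose, Sdhd by 0.20. Of 6 regulators of mitochondrial biogenesis 1 rose, Gabpa by 0.30, and 2 fell, Pprc1 by 0.31 and Nrf1 by 0.15. Nrf1 did not pass without library 3 or 12. With 4-OHT against untreated Cre-positive cells, 8, 0, 3, 6 and 5 nuclear subunits of complexes I to V rose, and 7, 0, 1, 0 and 0 fell. In Cre-negative cells, 4-OHT against ethanol called at most 1 gene in each direction in any of these lists, where 3.33% of all tested genes rose and 2.65% fell. Of the 76 ribosomal proteins 1 rose there.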

How the data were processed

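RNA extracted on RNeasy Plus Mini columns was made into stranded, rRNA-depleted total RNA libraries (TruSeq with Ribo-Zero Gold) and sequenced in pairs of 75 bases on a NextSeq, per the labels' protocols. The deposited table holds whole-number counts per gene symbol; the tools listed in the submitters' processing notes are RSEM 1.2.30, STAR 2.5.2a, cutadapt 1.11 and edgeR, with the build GRCm38. RSEM gives estimated counts, and the step that made them whole is not stated. All 12 columns matched a sample, and groups follow the labels. The counts were fitted with edgeR 4.0.16 (R 4.3.3): filterByExpr, TMM factors (0.972 to 1.02), 1 mean per group over all 12 libraries, the quasi-likelihood F test, and Benjamini-Hochberg adjustment over 17609 genes at 0.05. SE is the size of the log2 difference over the square root of F. The replicate spread was a biological coefficient of variation of 3.44%. Scripts were tested on simulated data. Every mt- gene could be named, at most 5 called genes per direction and comparison with full results, and at most 3 genes per nuclear list. The members and lists were chosen with earlier results of these data known. Nuclear copies were matched from GENCODE M21 transcripts of GRCm38 with blastn 2.17.0 (at least 90% identity over 80% of length, and shared 75-base windows), a step chosen after the counts were seen, and sequences come from the same transcripts. Alternatives were RLE or no scaling factors, totals and TMM factors without mt genes, no filter, a filter on CPM, and the compared libraries only. The others were copies added to their originals, DESeq2 1.42.0, and each library left out. For the class shares, totals without mt rRNA were used as well.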

Additional observations from a re-analysis of the deposited data

Results flagged for a closer look

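For each gene below, the effect of 4-OHT against ethanol differed between Cre-positive and Cre-negative cells by the interaction test (edgeR, adjusted p under 0.05 over all tested genes), and each value is the Cre-positive minus the Cre-negative log2 effect. Among the mitochondrial genes these were mt-Co1 (0.33), mt-Nd5 (−0.28) and mt-Rnr1 (−0.39). The nuclear genes below are only part of those called. They had the largest called differences of their list in Cre-positive 4-OHT against ethanol, which shares libraries with this test. By this test 28.3% of all tested genes were called. The effect was higher for 26 and lower for 5 of 76 mitochondrial ribosomal proteins, and for 13 and 1 of 36 nuclear complex I subunits. Those named among the genes of mitochondrial RNA were Mterf4 (0.47), Lrpprc (−0.75), Fastkd5 (−0.47), 1110008L16Rik (0.48), Supv3l1 (−0.24) and Rexo2 (−0.26). The nucleotide carrier Slc25a33 had −0.60: it fell with 4-OHT in Cre-positive cells (−0.27, adjusted p = 0.0203) and rose in Cre-negative cells (0.32, adjusted p = 0.0265). The fall did not pass without library 3 or 11, the rise did not pass without any of libraries 5, 6, 9 and 10 (adjusted p from 0.0593 to 0.281), and neither passed by DESeq2. Among the synthetases were Lars2 (1.06), Vars2 (−0.54) and Tars2 (−0.40), and among the ribosomal proteins Mrps28 (0.47), Mrpl34 (0.59) and Mrpl33 (−0.34). Subunits of the respiratory complexes were Ndufs5 (0.60), Sdhd (0.20), Uqcrfs1 (0.37), Ndufa4 (0.39) and Usmg5 (0.58). The regulators were Pprc1 (−0.49) and Gabpa (0.17). The Lars2 difference was 0.55 without library 11 (adjusted p = 0.0779) and did not pass. The differences of mt-Nd5, mt-Rnr1, Fastkd5, 1110008L16Rik, Supv3l1, Mrpl33, Sdhd and Gabpa also lost their call when certain single libraries were left out. With all libraries kept, DESeq2 did not call those of Lars2, mt-Nd5, mt-Rnr1, Fastkd5, 1110008L16Rik, Supv3l1 and Gabpa (adjusted p from 0.0527 to 0.231). Gabpa also did not pass without the filter on low counts, with nuclear copies added or with the compared libraries only.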

How the results depend on the processing

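No paired analysis was possible because the library numbers in the titles are not shared between groups. No call of a mitochondrial gene reversed. Of 998 single-gene values under alternatives that keep all libraries, 947 stayed on their side of the threshold, 24 were lost and 27 gained; of 576 with a library left out, these were 503, 51 and 22. In the order of the report, the number of called mitochondrial genes was as follows. For Cre-positive 4-OHT against ethanol (3) it was 6 without the filter, 5 with the compared libraries only, 1 by DESeq2 and 2 to 4 with a library left out. For Cre-negative 4-OHT against ethanol (2) it was 1 without TMM factors, 0 by DESeq2 and 0 to 3 with a library left out. For the interaction (3) it was 6 without the filter, 1 by DESeq2 and 1 to 4. For Cre-positive 4-OHT against untreated (8) it was 8 to 9, and for Cre-positive ethanol against untreated (6) it was 2 by DESeq2 and 3 to 4. For Cre-negative ethanol against untreated (5) it was 3 without TMM factors, 9 without the filter, 3 with copies added, 2 by DESeq2 and 2 to 5. For Cre-negative 4-OHT against untreated (2) it was 5 without the filter, 4 with the compared libraries only and 2 to 3. Between the untreated genotypes (8) it was 4 by DESeq2 and 3 to 8. On the TMM-scaled total the mRNA share was 0.796% in Cre-positive ethanol and 0.904% in Cre-positive 4-OHT cells (above the 0.894% of Cre-negative 4-OHT cells), and in Cre-negative ethanol cells the rRNA share was 0.957% and the tRNA share 0.00133%, or 0.00137% without mt rRNA. The causes were not tested. With its copy added, mt-Nd3 passed in 3 comparisons, lower for Cre-positive 4-OHT against ethanol (−0.37) and against untreated (−0.44), and higher for untreated Cre-positive against Cre-negative cells (0.50). Among the tested genes, mt-Tm had 3 to 26 and mt-Nd3 16 to 30 counts per library.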
